A study of Rattus norvegicus with 10 samples.

Results

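Interleukin and interleukin receptor transcripts were measured in rat milk whey over lactation and in serum. Members were all non-control probes whose gene name in the array files began with Il followed by a digit, which gave 85 probes for 68 genes among 41012 probes for 35469 genes. Inbred F344/N dams (n = 3), 14 weeks old when they arrived on day 14 of pregnancy, were each milked on d 2 (colostrum), d 9 and d 16 postpartum after separation from their litters and an oxytocin injection under light anaesthesia. Whey is the clear fluid that remained after fat, cells and casein had been spun out, and whey and serum were both passed through filters that hold back cell debris. Each whey sample had its own 1-colour array, so that each day had 3 arrays of the same 3 dams, and the serum RNA of the 3 dams, taken on d 21, had been mixed and put on 1 array without a replicate. The dams were untreated apart from this handling, and the design compared days and fluids within one strain.

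Interleukins are secreted signalling proteins that pass messages between immune, epithelial and stromal cells. Most act through receptors built from several chains, of which some are shared by whole families, and several families also have soluble antagonists and decoy receptors that hold signalling back. In the mammary gland and in milk they are best known from the response to infection, in which milk leukocytes and epithelium both make them.

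Some probes, whose sequences in the scanner files were 60 bases long, carry the main results and are shown for reference. They are the Il33 probe in which an open frame ends at a stop codon (chr1:233684152-233684211, plus strand), the probe of Il15, which was measured on every whey array (chr19:27496157-27496216, plus strand), and probes of 3 genes of the IL-1 family that differed between days or between probes. These are Il18 (chr8:53943005-53943064, plus strand), Il1rap (chr11:76113640-76113699, minus strand) and the dim probe of Il1rn (chr3:2609497-2610531, plus strand), whose 60 bases are spread over 1035 bases of the genome. Positions are those of build rn4 in the array files, and exon and untranslated region annotation was not used here. Capitals mark that stop codon, TAA, at position 56 of the Il33 probe, and no base of the others is marked.
Il33 A_44_P1029131: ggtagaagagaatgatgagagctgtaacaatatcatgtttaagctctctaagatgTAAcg
Il15 A_44_P222004: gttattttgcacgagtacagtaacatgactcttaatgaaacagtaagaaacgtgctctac
Il18 A_44_P161233: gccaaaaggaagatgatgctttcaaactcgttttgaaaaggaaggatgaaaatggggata
Il1rap A_44_P1009757: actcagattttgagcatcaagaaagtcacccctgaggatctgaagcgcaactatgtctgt
Il1rn A_44_P112890: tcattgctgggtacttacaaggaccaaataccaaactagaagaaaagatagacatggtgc

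Most interleukin genes gave no signal well above background, the flag by which the scanner software marks a spot that clearly exceeds its local background. Of the 85 probes, 30 probes for 25 genes carried it on at least 1 of 10 arrays (35.3%, against 51.6% of all probes), and 55 probes carried it on none. On all 9 whey arrays 6 members carried it (7.06%, against 23.9% of all probes), namely both Il33 probes, Il2rb, Il15, Il17re and Il11ra1. Il33 and Il2rb were the only members marked on all 10 arrays, serum included.

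Whole families of ligands were below this mark in both fluids. None of the 2 gp130 ligands (Il6 and Il11), the 2 IL-10 family ligands (Il10 and Il24), the 4 genes for IL-3, IL-5 and their receptors or the 5 IL-12 family genes (Il12a, Il12b, Il23a, Il12rb1 and Il12rb2) was well above background on any array. Of the 7 ligands that use the common gamma chain or the related type II receptors, only Il15 and, on 1 d 9 array, Il4 were marked, while Il2, Il7, Il9, Il13 and Il21 were not. In the IL-1 family 7 of 9 ligand and antagonist genes and 5 of 10 receptor and decoy genes were marked on at least 1 array. Il1a, Il1f10, Il1r1, Il18r1, Il1rl2, Il1rapl1 and Il1rapl2 were its members without a mark. Among the other receptors, 3 of 8 of the common gamma chain and type II group, 3 of 5 of the gp130 group, 2 of 7 of the IL-10 group and 2 of 4 of the IL-17 group were marked. Il16, Il8ra and Il8rb were not, the last 2 being the array's names for the chemokine receptors Cxcr1 and Cxcr2 of neutrophils. A missing mark is a statement about these arrays at their brightness, not about the absence of the transcript.

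More interleukin probes were marked on the d 9 and d 16 arrays than on those of d 2, but the differences did not pass an exact test and the arrays also differed in brightness. The 3 d 2 arrays had 8, 11 and 15 members well above background (dams 1 to 3), the d 9 arrays 14, 15 and 21, and the d 16 arrays 15, 24 and 21, with 8 on the serum array. The ranges of d 2 and the later days touched or overlapped, and each dam had more marked members on both later days than at d 2. The mean count was higher than at d 2 by 5.33 probes on d 9 and by 8.67 on d 16, and d 16 was 3.33 above d 9, with two-sided exact permutation p of 0.3, 0.2 and 0.5, and 0.1 was the smallest p possible with 3 arrays a day. The share of all probes that were well above background was 26.1 to 34.9% on d 2, 32.8 to 43.9% on d 9, 31.8 to 39.5% on d 16 and 15.0% in serum, and the 75th percentile of the signal was 12.5 to 28.0, 21.2 to 83.2, 21.5 to 40.6 and 4.11. The part of brightness in the interleukin counts was not tested.

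**Figure D1:**
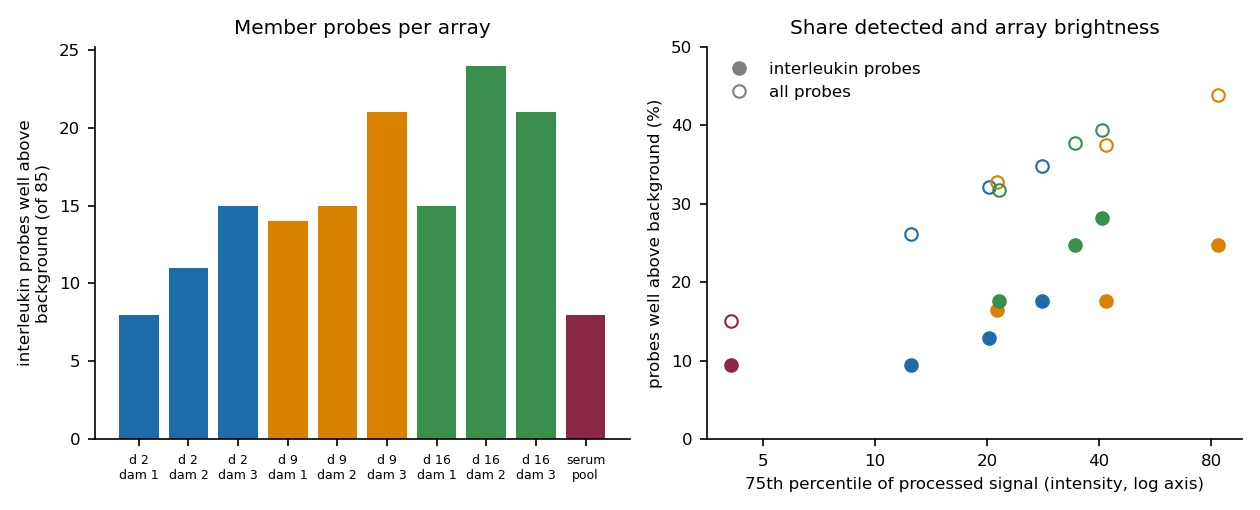
Left, bars give the number of the 85 interleukin probes well above background on each array (8 to 15 on d 2, 14 to 21 on d 9, 15 to 24 on d 16, 8 in serum). Right, each array's 75th percentile of the processed signal (log axis) against the percent of interleukin probes (filled) and of all probes (open) well above background, coloured by day as on the left; on every array the interleukin share lies under the share of all probes.

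With a minimum signal of 20 added on at least 1 array of the group, 8 members counted as detected at d 2, 15 at d 9, 19 at d 16 and 5 in serum. The shares of all probes by the same rule were 28.7% at d 2, 39% at d 9, 32.3% at d 16 and 8.6% in serum. Without the d 2 array of dam 3, 5 members were detected in d 2 whey. In whey as a whole 22 members for 18 genes passed (25.9%, against 41.1% of all probes), and differences between days were tested on these with limma over all 16849 probes that passed. A member that passed only through the day on which it was bright was thereby more likely to differ between days, so the counts below describe 22 of 85 probes. Il1rap and Il18 A_44_P531414, for example, passed on d 16 of dam 2 alone.

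The interleukin transcripts that changed over lactation mostly rose after d 2. From d 2 to d 9, 7 members passed an adjusted p of 0.05, of which 6 rose (Il1b, Il1rn, Il15, Il6ra, Il1rap and Il17re) and 1 fell (Il1f5). Over all probes tested 17.6% passed, 11.3% higher and 6.36% lower on d 9. From d 2 to d 16, 9 members for 7 genes passed, of which 8 rose (both probes of Il1b and of Il18, Il1rn, Il15, Il6ra and Il1rap) and 1 fell (Il1f5), where 28.5% of all probes passed, 16% higher and 12.4% lower on d 16. From d 9 to d 16 none passed in limma, where 1.42% of all probes passed. A Tukey-Kramer test passed 0% of all probes here, so its lack of members says nothing about them. At an unadjusted p under 0.05 this comparison held 2 members (Il17re and 1 probe of Il18), against 18.7% of all probes, while d 9 against d 2 held 9 (34.6%) and d 16 against d 2 held 15 (41.1%). The F test over the 3 days called 9 members, against 25.6% of all probes. The d 9 and d 16 comparisons share the d 2 arrays and are not independent of each other.

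The median change of the 22 members relative to d 2 was 0.44 on the log2 scale at d 9 and 0.97 at d 16, and d 16 minus d 9 was 0.45, where the medians of all probes tested were 0.11, 0.04 and -0.06. The filter kept members through the days on which they were bright: over all 85 members the medians were 0.014, 0.014 and 0.16, and within slide 2, described below, the median of the 22 from d 2 to d 9 was 0.07. Among the 22 members so kept, 15, 18 and 17 had a positive change in these comparisons (68.2, 81.8 and 77.3%). Of all probes tested 58.5, 52.7 and 43.0% had one. The 3 arrays of one day did not overlap those of the other for 10 members at d 2 and d 9 (38.8% of all probes), for 14 at d 2 and d 16 (48.2%) and for 5 at d 9 and d 16 (29.3%). The count from d 2 to d 9 rested on single arrays. It was 3 without d 2 dam 1, 1 without d 2 dam 2, 4 without d 9 dam 1, 0 without d 9 dam 2, 3 without d 9 dam 3 and 3 without d 16 dam 3, where 7.51 to 14.2% of all probes passed. For the F test the count was 3 without d 2 dam 2, 5 without d 9 dam 2 and 4 without d 16 dam 3. Without all 3 arrays of dam 2 no member was called on any pair of days, where the shares of all probes that passed were 0% for d 9 and 3.28% for d 16 against d 2.

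The arrays lay on 3 slides, with d 2 of dams 1 and 2 on slide 1, d 2 of dam 3 and all d 9 samples on slide 2, and all d 16 samples and serum on slide 3, which was scanned on a later day. Slide and d 16 cannot be told apart. Within slide 2, which leaves 1 d 2 array against 3 d 9 arrays, no member was called and 2.96% of all probes were. The 7 members called from d 2 to d 9 had the same sign within that slide, but this could not have come out otherwise. For each of them the d 9 arrays did not overlap those of d 2, and the slide holds a subset of the same arrays.

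**Figure D2:**
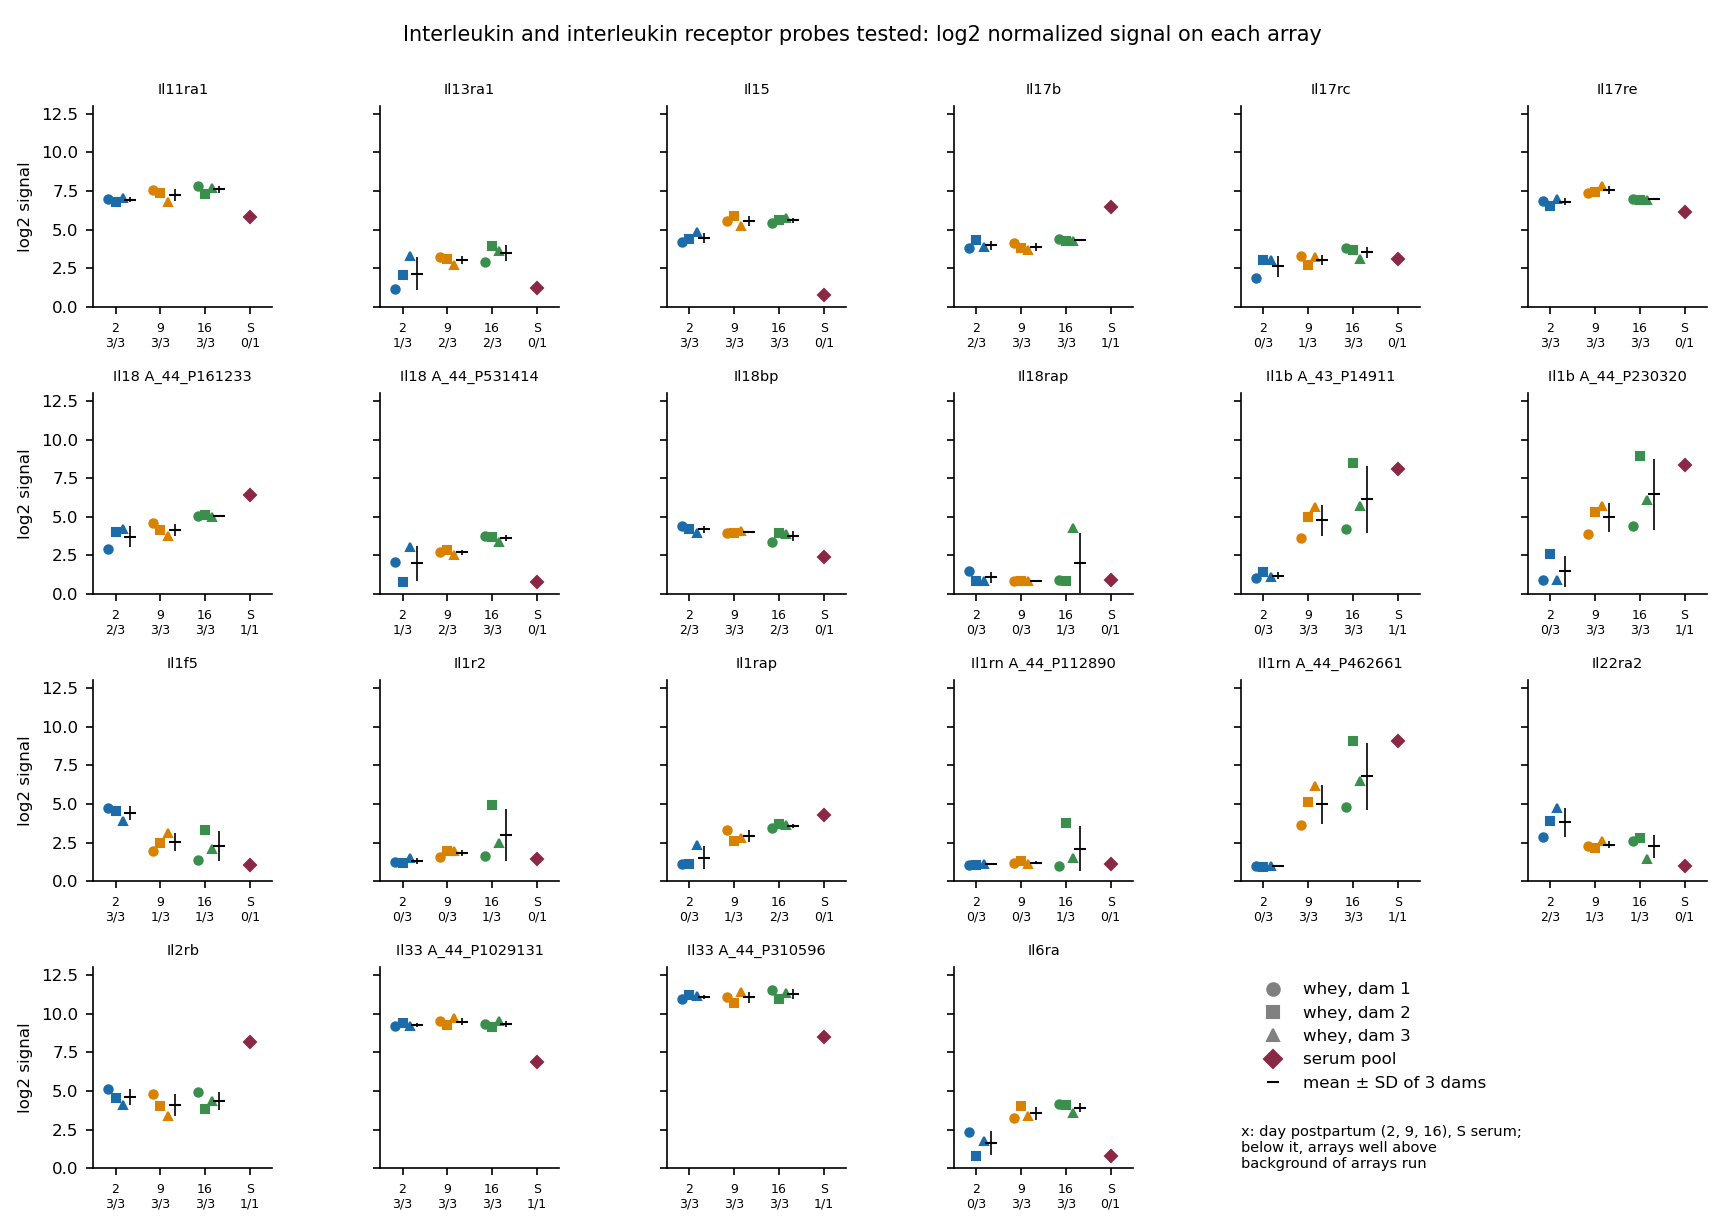
Each panel shows 1 of the 22 tested probes, with the log2 normalized signal of every array by day postpartum (symbols are dams, bars the mean ± SD of 3 dams) and of the serum pool (S), and under each day the number of arrays well above background. Both Il33 probes lie at nearly the same level on all 9 whey arrays and lower in serum, while Il1b and Il1rn A_44_P462661 lie near the floor on d 2 and are high in d 16 whey of dam 2 and in serum.

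Il33, an alarmin of the IL-1 family that epithelial and other barrier cells release when damaged, had the smallest spread among the 6 members measured on every whey array. Probe A_44_P1029131 measured 9.21, 9.41 and 9.21 (log2 normalized signal, dams 1 to 3) on d 2, 9.53, 9.24 and 9.70 on d 9 and 9.31, 9.16 and 9.55 on d 16. Probe A_44_P310596, which lies 1.05 kb further along chromosome 1, measured 10.97, 11.20 and 11.14 on d 2, 11.06, 10.72 and 11.39 on d 9 and 11.54, 10.95 and 11.36 on d 16. The 3 days overlapped for both probes, and dam 2 was the lowest of the 3 dams on d 9 and on d 16.

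No difference of Il33 between days passed the test. For A_44_P1029131 the log2 change was 0.21 ± 0.16 (SE, n = 3 a day, 95% interval -0.16 to 0.58) from d 2 to d 9, with an adjusted p of 0.383 in limma. It was 0.06 ± 0.16 (-0.31 to 0.44, adjusted p = 0.798) from d 2 to d 16 and -0.15 ± 0.16 (-0.52 to 0.23, adjusted p = 0.655) from d 9 to d 16. For A_44_P310596 the changes were -0.05 ± 0.21 (-0.54 to 0.44), 0.18 ± 0.21 (-0.32 to 0.67) and 0.23 ± 0.21 (-0.27 to 0.72), with adjusted p of 0.888, 0.564 and 0.594. For the second probe these intervals still hold a rise of up to 0.72 and a fall down to -0.54.

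Over the 9 whey arrays the SD of Il33 was 0.186 and 0.255 on the log2 scale. The other members well above background on all whey arrays had SDs of 0.377 (Il11ra1), 0.384 (Il17re), 0.570 (Il2rb) and 0.605 (Il15). Both SDs of Il33 were below those of these 4 members, but it was not set apart from transcripts at large. The median SD of the 9820 probes measured on all whey arrays was 0.293, and 20.7% and 40.2% of them had a smaller SD than the Il33 probes. Among probes within 1 log2 unit of each Il33 probe's own mean level, 31.0% of 1528 and 67.3% of 669 had a smaller SD. By the same measure the shares were 70.8% for Il11ra1 and 71.1% for Il17re, close to that of the brighter Il33 probe, and 80.7% for Il2rb and 86.8% for Il15.

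**Figure D3:**
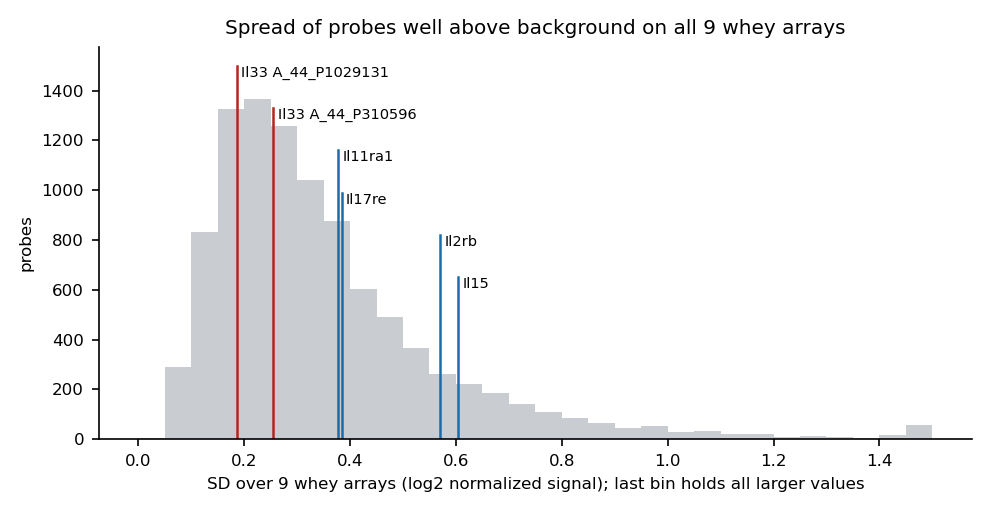
Grey bars count the 9820 probes that every whey array marked by their SD of log2 normalized signal over those arrays, and lines mark the 6 interleukin probes among them. The Il33 probes (red, 0.186 and 0.255) lie left of the median of 0.293, and Il11ra1, Il17re, Il2rb and Il15 (blue, 0.377 to 0.605) to its right.

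The receptor of IL-33 was barely seen. Il1rl1, which encodes its ligand-binding chain ST2, was well above background on 1 d 16 array with 1 of 2 probes and on no other. Il1rap, the accessory chain that the IL-1, IL-33 and IL-36 receptors share, was well above background on no d 2 array, 1 d 9 array and 2 d 16 arrays. Its signal was 1.11, 1.09 and 2.37 on d 2, 3.34, 2.61 and 2.77 on d 9 and 3.44, 3.67 and 3.67 on d 16, above the d 2 arrays in every dam. Its fitted change passed in both comparisons with d 2 (adjusted p = 0.0359 on d 9 and 0.00556 on d 16, limma), but rested on d 2 values under background. The d 9 call was lost in 14 of 18 alternatives, 75th percentile scaling (adjusted p = 0.117) and normexp (0.423) among them. It reached the minimum signal of 20 on 1 array alone, d 16 of dam 2 (20.1). It was thus tested only through a day on which it was bright.

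Where all 3 arrays of a day missed the mark, a fold is given only as a bound. The brighter day's mean was then compared with a floor, which on each array was the dimmest marked signal or the value of the probe itself if that was larger, averaged over the day. An adjusted p printed beside a bound belongs to the limma comparison of the fitted means, floor values included, and does not test the bound. By this bound d 16 exceeded d 2 at least 1.10-fold for Il1rap, and for d 9 the bound was under 1. Without the d 2 array of dam 3 the d 16 bound was also under 1.

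Among the IL-1 family ligands, Il1b and Il1rn had the largest fitted changes of the 22 members. Il1b encodes the inflammatory cytokine IL-1 beta and Il1rn its secreted antagonist. Neither was well above background on any d 2 array, and both were on all d 9 and d 16 arrays and in serum. Il1b probe A_43_P14911 measured 1.05, 1.43 and 1.11 on d 2, 3.65, 5.02 and 5.65 on d 9 and 4.20, 8.50 and 5.69 on d 16, and the serum pool gave 8.07. Probe A_44_P230320 measured 0.90, 2.59 and 0.90 on d 2, 3.91, 5.31 and 5.68 on d 9 and 4.40, 8.93 and 6.07 on d 16, with 8.39 in serum. Dam 2 was the highest on d 16 and dam 1 the lowest on both days, and no later array overlapped those of d 2.

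By its 2 probes Il1b at d 16 exceeded d 2 at least 6.36-fold and 8.03-fold (adjusted p = 0.0101 and 0.0139). On d 9 the bounds were at least 2.48-fold and 2.83-fold, and the second probe did not pass (adjusted p = 0.0453 and 0.0636). With the dam as a block the second probe passed on d 9 as well (adjusted p = 0.0279).

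Il1rn probe A_44_P462661 measured 0.96, 0.92 and 0.99 on d 2, 3.65, 5.15 and 6.16 on d 9 and 4.81, 9.10 and 6.50 on d 16, with 9.04 in serum. The order of the dams was that of Il1b, with dam 1 lowest on both days and dam 2 highest on d 16. It exceeded d 2 at least 2.88-fold at d 9 (adjusted p = 0.0353) and at least 10.1-fold at d 16 (adjusted p = 0.00619). The other Il1rn probe, A_44_P112890, disagreed. It was well above background on 1 array alone, d 16 of dam 2, at 3.76, and passed no comparison (adjusted p = 0.915, 0.253 and 0.467). The first probe lies 2.60 kb further along chromosome 3.

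The size of these differences rested on single arrays. Without the d 16 array of dam 2 the bounds for d 16 were 2.80-fold and 3.42-fold for Il1b and 4.57-fold for Il1rn A_44_P462661, and without that of dam 1 they were 12.4-fold, 16.4-fold and 20.2-fold. For Il1rn on d 9 the bound was 1.92-fold without the d 9 array of dam 3 and 4.58-fold without that of dam 1. Without the d 16 array of dam 2, Il1b still passed from d 2 to d 16 (adjusted p = 0.0124 and 0.0224), as did Il1rn A_44_P462661 (0.0104). Without all 3 arrays of dam 2 the adjusted p were 0.0777, 0.0622 and 0.0774. With normexp background correction neither Il1b probe passed on d 16 (adjusted p = 0.0522 and 0.0503), and the d 9 calls of Il1b A_43_P14911 and Il1rn were lost in 13 and 11 of 20 alternatives.

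Markers of leukocytes were compared over the same arrays, and their genes did not all go one way. The summed normalized signal of 12 neutrophil marker genes on the array was 78.8 to 96.8 on d 2, 64.8, 234 and 119 on d 9 (dams 1 to 3), 103, 475 and 138 on d 16, and 10724 in serum. That of 13 macrophage marker genes was 446 to 536 on d 2, 936, 703 and 447 on d 9, 1480, 1995 and 1625 on d 16 and 9506 in serum. Dam 2 thus had the highest neutrophil sum on both later days and on d 16 also the highest Il1b and Il1rn, while on d 9 these were highest in dam 3, in which the macrophage sum was lowest. In dam 1 the d 9 neutrophil sum lay below all d 2 values, although Il1b and Il1rn lay above theirs. A sum is weighted to its brightest genes, which for neutrophils in dam 2 were S100a9 and S100a8 (6.43 on d 9 and 7.21 on d 16). S100a9, a calcium-binding protein abundant in neutrophils and part of that sum, measured 2.95, 2.72 and 1.54 on d 2 and 1.74, 6.55 and 4.91 on d 9. It measured 3.00, 7.92 and 4.98 on d 16 and 12.69 in serum. Mpo, the peroxidase of neutrophil granules, instead measured 4.73, 4.05 and 3.97 on d 2 and 1.85, 1.25 and 1.10 on d 16. In the macrophage list Cd14, a monocyte receptor for bacterial lipopolysaccharide, fell. Its brighter probe measured 7.76, 8.13 and 8.44 on d 2 and 5.63, 6.82 and 6.25 on d 16. C1qa, C1qb, C1qc, Cd68, Fcer1g and, by its brighter probe, Fcgr1a rose, with every d 16 array above all d 2 arrays. C1qb, for example, measured 5.02, 4.79 and 5.43 on d 2 and 8.86, 8.60 and 8.86 on d 16. Emr1 was well above background on 3 arrays and Mrc1 on 1.

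Of the neutrophil genes 3 were well above background on d 2, 5 on d 9, 4 on d 16 and 5 in serum, and Csf3r, Elane, Il8rb, Ltf, Mmp8 and Mmp9 were on no whey array. Of the macrophage genes 6, 8, 9 and 6 were, and Cd163, Csf1r, Itgam and Msr1 were on no whey array. T cell markers (12 genes, 7 of them on no whey array) summed to 67.8 to 100 on d 2, 90.4 to 130 on d 9, 156 to 206 on d 16 and 1842 in serum. B cell markers (7 genes, 5 of them on no whey array) summed to 24.6 to 27.8, 31.9 to 35.7, 31.8 to 42.2 and 99.5. All 11 mammary epithelial markers were well above background on every day, with sums of 434183 to 468313 on d 2, 554333 to 645088 on d 9 and 756333 to 838459 on d 16, and 7 of them in serum with a sum of 7378. The part of any cell type in the interleukin changes was not tested. Since cells were spun out of the whey before extraction, a different number of source cells of a type and a different amount of RNA from each cannot be told apart.

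**Figure D4:**
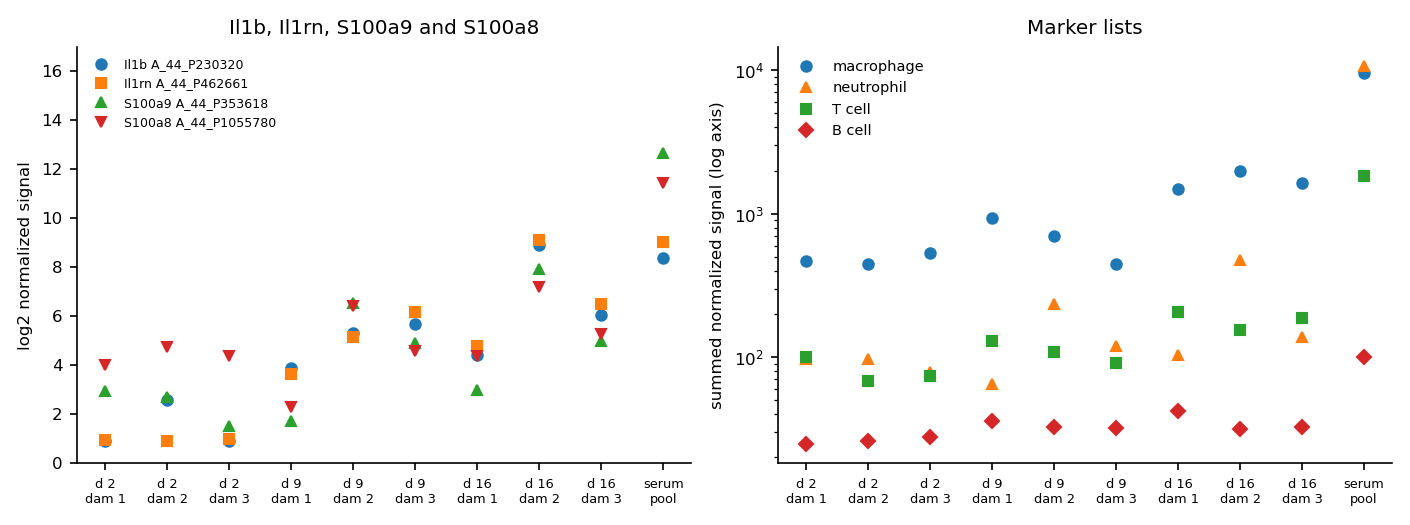
Left, log2 normalized signal of Il1b, Il1rn and the neutrophil markers S100a9 and S100a8 on each array, where levels of different probes are not to be compared. Right, summed normalized signal (log axis) of 4 lists of leukocyte marker genes on each array; the d 9 and d 16 arrays of dam 2 have the highest neutrophil sums in whey (234 and 475), and serum the highest of all (10724).

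Il18, whose product drives interferon gamma from lymphocytes and which many epithelia make, was higher on d 16 than on d 2 by both of its probes. Of these, 1 was tested only through a d 16 array. Probe A_44_P161233 measured 2.94, 4.00 and 4.23 on d 2, 4.57, 4.16 and 3.79 on d 9 and 5.07, 5.14 and 4.99 on d 16. All d 16 arrays lay above all earlier ones and close to each other. The rise was 1.34 ± 0.34 on the log2 scale (2.54-fold, adjusted p = 0.0228). This call was lost in 7 of 18 alternatives, spike-in scaling (adjusted p = 0.107) among them. Probe A_44_P531414, 15.5 kb away, measured 2.08, 0.79 and 3.08 on d 2 and 3.76, 3.72 and 3.39 on d 16, a rise of 1.64 ± 0.49 (3.11-fold, adjusted p = 0.0415), and a fit blocked by dam gave an adjusted p of 0.0636. That probe was well above background on 1 of 3 d 2 arrays, and its call was lost in 14 of 18 alternatives. It reached the minimum signal only on d 16 of dam 2 (20.7), a day on which it was high. Its rise is therefore no independent support for the first probe.

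Il1f5, now named Il36rn, encodes the antagonist of the IL-36 receptor and was the member that fell. It measured 4.77, 4.53 and 3.90 on d 2, 1.98, 2.46 and 3.15 on d 9 and 1.40, 3.30 and 2.07 on d 16. The d 2 arrays lay above all others, and on d 9 and d 16 the probe was well above background on 1 of 3 arrays each. It fell by 1.87 ± 0.51 on the log2 scale to d 9 (adjusted p = 0.0419, and 0.0556 with the dam as a block) and by 2.14 ± 0.51 to d 16 (adjusted p = 0.0185). With spike-in scaling its changes were -0.68 and -1.61 and did not pass (adjusted p = 0.377 and 0.203). Its second probe was well above background on no array.

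The remaining genes of the family were dim. Il18bp, the soluble decoy of IL-18, measured 4.41, 4.18 and 3.98 on d 2 and 3.36, 3.96 and 3.90 on d 16, and its change of -0.45 ± 0.19 did not pass (adjusted p = 0.115). Il1r2, the decoy receptor of IL-1, and Il18rap were each well above background on a single d 16 array, of dam 2 at 4.90 and of dam 3 at 4.28. Il1f6 and Il1f8, now Il36a and Il36b, were each well above background on 2 d 16 arrays, and Il1f8 also on 1 d 2 array, but did not reach the minimum signal. These 2 genes lie beside Il1f5 and Il1rn in one cluster on chromosome 3, with 25.1 kb, 24.2 kb and 74.1 kb between the probes in that order. In it Il1f5 fell while Il1rn, by 1 of 2 probes, rose.

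Il15, a cytokine that maintains natural killer and memory T cells and intraepithelial lymphocytes, was the ligand outside the IL-1 family with changes that passed. It measured 4.22, 4.40 and 4.83 on d 2, 5.55, 5.91 and 5.22 on d 9 and 5.45, 5.64 and 5.75 on d 16. All later arrays lay above all d 2 arrays. It rose 2.11-fold to d 9 (1.08 ± 0.22 on the log2 scale, adjusted p = 0.0171) and 2.19-fold to d 16 (1.13 ± 0.22, adjusted p = 0.00907), with 0.73 as its log2 change to d 9 within slide 2. The d 9 call of Il15 was lost in 5 of 20 alternatives and its d 16 call in 2 of 19. Of its receptor chains, Il2rb, which IL-2 and IL-15 share, was well above background on all arrays. Il2rb measured 5.15, 4.58 and 4.12 on d 2, 4.81, 4.01 and 3.41 on d 9 and 4.95, 3.82 and 4.33 on d 16, and no comparison passed (adjusted p = 0.413, 0.699 and 0.760). On each day dam 1 was the highest.

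The receptors of the gp130 and IL-17 families held 3 of the transcripts seen throughout or after d 2. Il6ra, now Il6r, the ligand-binding chain of the IL-6 receptor, was on no d 2 array and on all d 9 and d 16 arrays well above background. It measured 2.37, 0.78 and 1.77 on d 2, 3.26, 4.06 and 3.38 on d 9 and 4.15, 4.07 and 3.58 on d 16, with all later arrays above the d 2 arrays. Both limma comparisons with d 2 passed (adjusted p = 0.0185 on d 9 and 0.00620 on d 16), but rested on d 2 values under background. The probe reached the minimum signal only on the later days. By the bounds, which these p do not test, it was at least 1.08-fold higher on d 9 and 1.39-fold higher on d 16. Without d 2 dam 3 or d 9 dam 2 the d 9 bound was under 1. Its ligand Il6 and the signalling chain Il6st were not well above background on any array.

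Il11ra1, the ligand-binding chain for IL-11, was on all whey arrays and measured 7.02, 6.77 and 7.05 on d 2, 7.60, 7.37 and 6.83 on d 9 and 7.81, 7.34 and 7.67 on d 16. Its d 16 values all lay above those of d 2, but the change of 0.66 ± 0.22 did not pass (adjusted p = 0.0591). Il27ra was well above background on 2 d 16 arrays under the minimum signal.

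Il17re, the chain that binds IL-17C on epithelial cells, had its highest values on d 9. It measured 6.87, 6.56 and 7.02 on d 2, 7.36, 7.46 and 7.86 on d 9 and 7.01, 6.96 and 6.93 on d 16. The d 9 arrays lay above all others. It rose 1.67-fold from d 2 to d 9 (0.74 ± 0.17 on the log2 scale, adjusted p = 0.0260, and 0.54 within slide 2), and the change of -0.59 ± 0.17 from d 9 to d 16 did not pass (adjusted p = 0.139). Il17rc, 12.4 kb away on chromosome 4, was well above background on no d 2 array, 1 d 9 array and all 3 d 16 arrays, and passed no comparison (adjusted p = 0.102 from d 2 to d 16).

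Il17b, the one IL-17 family ligand seen, measured 3.80, 4.33 and 3.86 on d 2, 4.17, 3.82 and 3.68 on d 9 and 4.41, 4.29 and 4.26 on d 16, and passed no comparison (adjusted p = 0.725, 0.234 and 0.273). Il22ra2, the soluble binding protein of IL-22, measured 2.85, 3.90 and 4.72 on d 2 and between 1.42 and 2.82 on the later days. Those days lay below all d 2 arrays, and the changes of -1.46 ± 0.51 and -1.55 ± 0.51 did not pass (adjusted p = 0.0870 and 0.0566). Il13ra1 had 4 probes, of which 1 was tested and passed no comparison (adjusted p = 0.266, 0.0863 and 0.653) and 2 were well above background on no array.

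**Figure D5:**
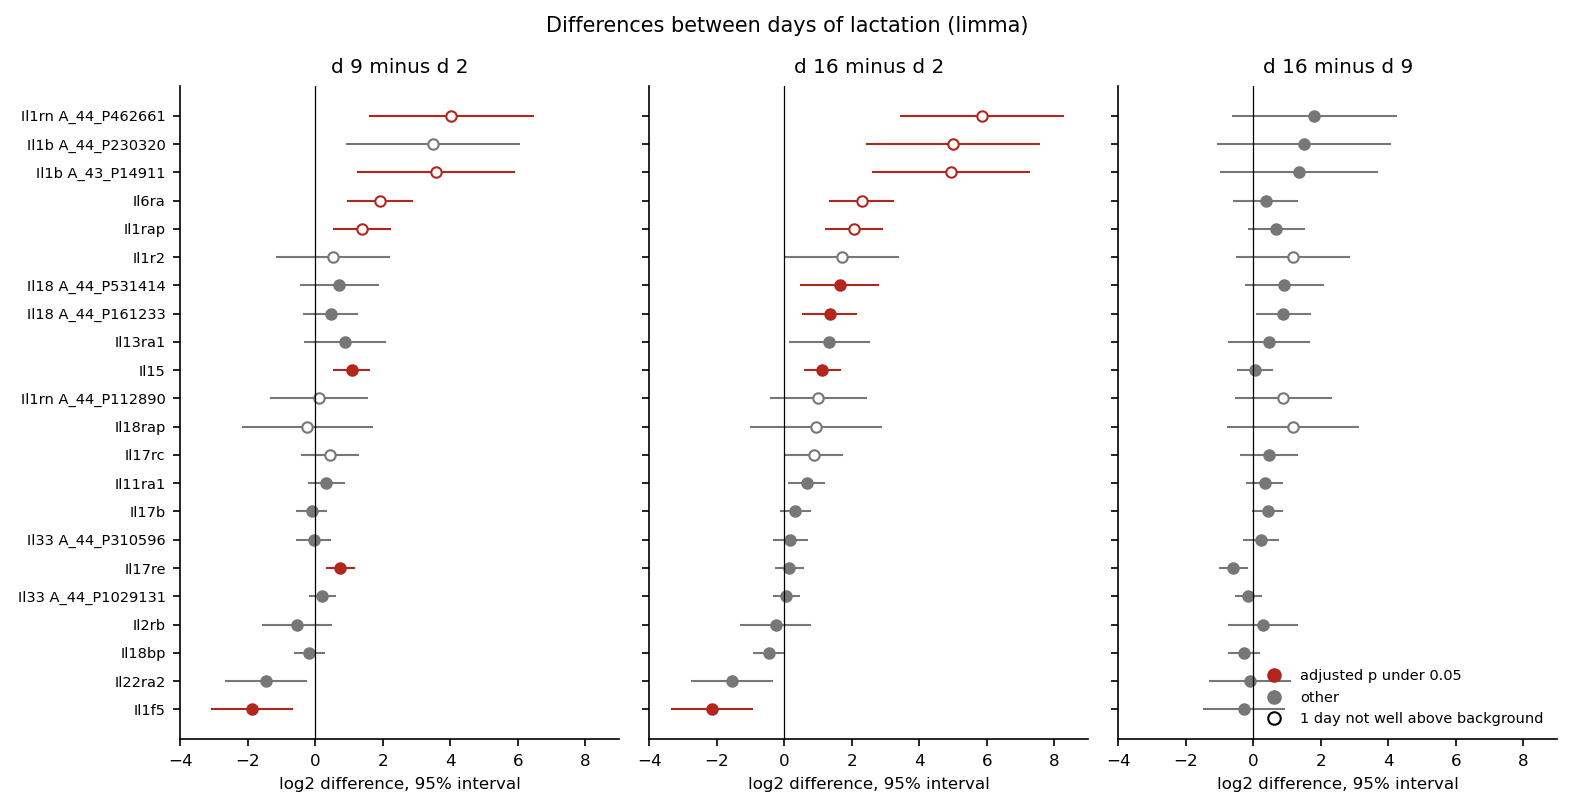
Points give the log2 difference between days of each of the 22 tested probes with its 95% interval, red where the adjusted p was under 0.05 and open where the probe was not well above background on any array of at least 1 of the 2 days, so that the fitted size rests on floor values. Both Il33 probes lie near 0 in all 3 panels, and no probe is red from d 9 to d 16.

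Signalling genes downstream of these receptors passed the test at rates under or near those of all probes. Of the kinases, adaptors and NF-kappa B factors of IL-1 and IL-33 signalling, 21 probes for 17 genes were tested. From d 2 to d 9, 2 of the 21 rose (the kinases Irak1 and Map3k7), and from d 2 to d 16, 2 rose (Traf6 and Irak4) and 1 fell (Tollip, an inhibitor of the receptor complex). Both counts lay under the shares of all probes that passed, 17.6% and 28.5%. The medians were 0.10 and 0.34 on the log2 scale. These 5 genes are named after their values were seen, and the second probes of Map3k7 and Tollip passed no comparison. Irak1 rose by 0.69 ± 0.16 to d 9 (adjusted p = 0.0244) and Traf6 by 0.89 ± 0.21 to d 16 (adjusted p = 0.0163).

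Of the JAK-STAT genes, which relay the signals of the gp130, common gamma chain and IL-10 families, 26 probes for 20 genes were tested. From d 2 to d 9, 3 of the 26 rose and 1 fell, and from d 2 to d 16, 3 rose and 5 fell, near the shares of 17.6% and 28.5% of all probes, with medians of -0.33 and -0.24. No gene of either list passed from d 9 to d 16 in limma, where 1.42% of all probes did. The feedback inhibitor Cish measured 3.80, 3.25 and 3.05 on d 2, 4.58, 4.48 and 4.97 on d 9 and 4.82, 4.52 and 4.40 on d 16, a rise of 1.31 ± 0.23 to d 9 (adjusted p = 0.0105) and 1.22 ± 0.23 to d 16 (adjusted p = 0.00804). Pias2, an inhibitor of STAT proteins, rose by 0.72 ± 0.14 and 1.00 ± 0.14 (adjusted p = 0.0158 and 0.00282). Stat5b, a transducer of prolactin and cytokine signals, fell by 0.66 ± 0.15 to d 16 (adjusted p = 0.0152), and Socs6 fell by 0.55 ± 0.15 and 0.67 ± 0.15 (adjusted p = 0.0428 and 0.0150), though with spike-in scaling the d 9 change of Socs6 was 0.85.

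Serum had 1 array, so its values are set beside those of whey without a test. Of the 3 members well above background on all 10 arrays, both Il33 probes exceeded serum over 4-fold in whey, and Il2rb exceeded whey over 4-fold in serum, as did 8.69% and 17.4% of the 4635 such probes. The Il33 probes measured 6.89 and 8.51 in serum, below every whey array, and the whey mean lay 2.48 and 2.63 log2 units higher. Il2rb measured 8.19 in serum, above every whey array, a difference of -3.84 for whey minus serum.

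Serum had 8 members well above background, and each of them was also well above background on at least 6 whey arrays. Beside Il33 and Il2rb these were Il1b by both probes, Il1rn, Il18 and Il17b. Whey minus serum was -2.12 for Il18 A_44_P161233 and -2.39 for Il17b. For Il1b and Il1rn, which d 2 whey did not raise above background, the later days were compared after quantile normalization. The d 9 mean minus serum was -3.30 and -3.42 for Il1b and -4.05 for Il1rn A_44_P462661, and the d 16 mean minus serum was -1.94, -1.92 and -2.24, where the d 16 array of dam 2 exceeded serum for each of these probes. Conversely Il15, Il11ra1 and Il17re, measured on all whey arrays, were not well above background in serum. With quantile normalization Il11ra1 was at least 2.70-fold and Il17re at least 2.00-fold higher in whey, and for Il15 the bound was under 1. Over the other scalings and normexp, whey minus serum was 0.60 to 4.71 log2 units for Il11ra1 and 0.92 to 4.35 for Il17re.

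The sizes of the differences from serum, and some of their signs, depended on the scaling. When arrays were scaled to spike-in controls, whey minus serum was 6.01 and 6.38 for Il33 and -0.22 for Il2rb. Over all whey arrays, d 2 at its floor included, it was then -0.28 and -0.31 for Il1b and -0.98 for Il1rn, and Il17b and Il18 turned to 0.94 and 1.24 in favour of whey. Before any scaling, the processed signal of Il1b (both probes) and Il1rn A_44_P462661 on d 9 and d 16 exceeded serum in dams 2 and 3. In dam 1 it lay below serum on both days. Il1b A_43_P14911 gave 16.8, 647 and 75.6 on d 16 and 26.1 in serum. Il1rn A_44_P462661 gave 25.2, 996 and 133 on d 16 and 49.7 in serum. Spike-in scaling also moved the median of all probes tested from 0.11 to 1.52 for d 9 against d 2, and for d 16 against d 2 from 0.04 to 0.59. Under it 12 members passed as higher and 0 as lower on d 9, where 7004 of all 16849 probes passed as higher and 68 as lower. On d 16, 5 members passed as higher and 0 as lower, against 587 and 177 of all probes. Relative to those medians the Il33 probes changed by 0.18 and -0.16 to d 9 and by 0.04 and 0.07 to d 16.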

How the data were processed

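RNA from whey and serum (100 ng per array) was labelled in 1 colour and hybridised to Agilent rat arrays, and the authors extracted the spots with Feature Extraction 9.5.3.1. The deposited files give, per the file headers, each spot's background-subtracted processed signal intensity and a flag, of unit other, for spots well above background. The study normalized by quantiles in GeneSpring, with the software's present call, for which this flag was used here. The series table deposited by the authors has 10 sample columns whose names match no label, and these were not used.

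Control spots were dropped, spots of a probe were averaged, and intensities were quantile normalized over 10 arrays and put on the log2 scale. Detection required the flag and a processed signal over 20 on the same array, on at least 1 array of a group. Probes detected in whey were tested with limma 3.58.1 in R 4.3.3 (with data.table, version 1.17.8, and jsonlite 2.0.0) over all 3 days of whey, with empirical Bayes moderation (1.83 prior degrees of freedom), Benjamini-Hochberg adjustment over all probes tested and a threshold of 0.05. The steps were tested on simulated data. With 3 arrays a day, the number of arrays limits the precision. The same 3 dams gave every whey day, so replicate numbers pair the samples: deviations from the day means correlated at a mean of 0.0954 for 9 same-dam pairs (-0.0184 to 0.218) and -0.0473 for 18 pairs of different dams. The unpaired fit was the main one, after the study's methods.

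Named were both Il33 probes, members past the threshold between any days, members well above background on all 9 whey arrays or in serum, all probes of a gene where they disagree, and the 4 genes of the pathway lists with the smallest p. Others are named where a family is described. Members and lists (interleukin families, 2 signalling pathways, markers of 5 cell types) were chosen with earlier results of these data known. Of the 85 probes, 71 matched the RefSeq gene table of GRCr8 by accession, and 8 of these have another symbol there. For 1 probe outside the members the current symbol begins with Il and a digit. Alternatives covered scaling, background correction, detection, the dam and the slide as blocks, the study's Tukey-Kramer test and leaving out each array. Leaving out dam 2 was added after its values were seen.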

Additional observations from a re-analysis of the deposited data

How the results depend on the processing

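With 3 dams, quantile normalization and signals often near the floor, calls rested on few arrays. Of the 16 changes of single members that passed, 196 of 301 alternatives kept the call, 105 lost it and none reversed the sign. In what follows the share of all probes tested that passed is given in brackets. From d 2 to d 9, 7 members of 22 passed (17.6%). The count was 12 with spike-in scaling (42%) and 3 with normexp background correction (20.4%). It was 4 of 85 without a filter on dim probes (5.97%) and 0 with the Tukey-Kramer test (7.7%). Without single arrays it was 0 to 7 (7.51 to 16.1%), and without dam 2 it was 0 (0%). From d 2 to d 16, 9 passed (28.5%). The count was 5 with spike-in scaling (4.53%), 5 of 8 with a minimum signal of 100 (43%) and 4 with the Tukey-Kramer test (15.9%). Without single arrays it was 6 to 10 (16.3 to 29%), and without dam 2 it was 0 (3.28%). From d 9 to d 16, 1 passed with normexp (5.07%), against 0 (1.42%). The F test, with 9, gave 5 with normexp, 5 with a minimum signal of 100, 3 to 9 without single arrays and 0 without dam 2. With the dam as a replicate block the counts were 7, 8 and 0 between days (18.4, 28.8 and 0.694%) and 8 for the F test. The block changed the calls of Il1f5 (d 2 to d 9, adjusted p = 0.0556), of Il18 A_44_P531414 (d 2 to d 16, 0.0636) and of Il1b A_44_P230320 (d 2 to d 9, 0.0279), and no other call of a named member.

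Il33 A_44_P1029131 changed by 1.71 from d 2 to d 9 with spike-in scaling (adjusted p = 0.0433), where the median of all probes was 1.52, and its change from d 2 to d 16 was -0.038 to 0.15 without single arrays. For A_44_P310596 the change from d 2 to d 9 was 1.37 with spike-in scaling, -0.22 to 0.12 without single arrays and 0.17 without dam 2, and that from d 9 to d 16 was -0.72 with spike-in scaling. Whey minus serum for the 2 Il33 probes was 3.19 and 3.56 with 75th percentile scaling, 6.01 and 6.38 with spike-in scaling and 1.75 and 2.22 with normexp, and for Il17b and Il18 A_44_P161233 spike-in scaling reversed it to 0.94 and 1.24. Members detected were 16 on d 2 and 8 in serum without a minimum signal, 4 on d 2, 8 on d 9, 7 on d 16 and 0 in serum with a minimum of 100, 5 to 8 on d 2 without single arrays, and 8 in serum by the flag on all arrays of a group. With a minimum of 100 the mean count per array differed by -0.333 from d 9 to d 16. The causes were not tested.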
